A study of Homo sapiens with 6 samples.

Results

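Integrins and laminins are the receptors and the ligands of one adhesion system, and their mRNAs were followed in HCCLM3 cells treated with CC-885. The members were the protein-coding rows of the deposited gene count table whose symbol names an integrin alpha subunit (ITGA), an integrin beta subunit (ITGB) or a laminin alpha, beta or gamma chain (LAMA, LAMB, LAMC). They are 38 of the 20263 rows: 26 integrin subunits and 12 laminin chains. Of the 6 libraries, 3 came from cells given CC-885 for 24 h and 3 from cells given DMSO, the usual solvent, for the same time, all in DMEM with serum. HCCLM3, the cell line of every library, derives from a human liver tumour and is used as a model of metastasis; CC-885 binds cereblon, the substrate receptor of a ubiquitin ligase, and turns the ligase towards other proteins, GSPT1 among them. The series' title places the work in a study of GOLM1, a Golgi protein, as a target of CC-885 in this cancer. No dose of CC-885 is given in the sources used here. Whether replicates were grown as separate cultures is not stated, and p-values therefore reflect spread between libraries that may be technical.

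Integrins are receptors of 1 alpha and 1 beta subunit, which join in the endoplasmic reticulum, span the plasma membrane, hold the extracellular matrix outside and are tied to actin or keratin inside. The alpha subunit largely sets which ligand is held: collagens, laminins, or proteins with the Arg-Gly-Asp motif such as fibronectin and vitronectin. Laminins are trimers of an alpha, a beta and a gamma chain, secreted as a cross that forms the sheet of a basement membrane. In the adult liver the sinusoids have no continuous basement membrane, while bile ducts and vessels have one.

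Libraries held 30432509 to 39809131 counts. Levels are in CPM, counts scaled to library size with TMM factors, and on that scale a gene with no count could still lie at up to 0.0780 to 0.0999 CPM, depending on the library (counting error only). Libraries of the same treatment correlated at 0.976 or more across genes, and libraries of different treatments at 0.942 or less. The hepatocyte genes fixed as markers were close to absent. ALB, APOA2, APOB, TTR and AFP had 0 counts in every library, and the 10 markers summed to 0.232 to 0.572 CPM with CC-885 and 1.23 to 1.55 CPM with DMSO. KRT8 (890 and 1252 CPM on average with CC-885 and DMSO) and KRT18 (657 and 758 CPM), the keratins of simple epithelia, were the abundant ones of 5 epithelial markers. EPCAM (3.64 and 3.46 CPM) and CDH1 (3.78 and 4.502 CPM) were low, and KRT19 had no count in 5 of the 6 libraries. KRT8 was called lower (log2 fold change -0.49, adjusted p = 0.0236), a call lost without any 1 of the CC-885 libraries or DMSO replicate 1 (adjusted p 0.0595 to 0.117). HNF4A, a transcription factor of hepatocytes and the only gene of that list with enough counts to test, was low and lower with CC-885 (0.167, 0.416 and 0.0581 CPM, against 1.38, 1.33 and 1.04 CPM with DMSO, log2 fold change -2.50, adjusted p = 0.00156). The limit of the filter on low counts was 0.287 CPM. HNF4A lay below it in CC-885 replicates 1 and 3, so its place among the tested genes depends on its DMSO counts. The label gives the cells as liver cancer cells, and the secreted hepatocyte proteins' mRNAs were at or near 0. Among 6 leukocyte markers PTPRC and CD3E, and among 4 platelet markers PF4, PPBP and GP9, were at 0 in every library; the leukocyte list summed to 5.56 to 6.77 CPM with CC-885 and 7.84 to 8.41 CPM with DMSO, ITGB2 included, and the platelet list, from GP1BA alone, to 1.47 to 1.92 CPM and 3.73 to 4.14 CPM. Of 6 stromal markers COL1A1 was higher (155 and 104 CPM) and PDGFRB (14.1 and 70.9 CPM) and DCN (0.126 and 1.21 CPM) were lower with CC-885, LUM was at 0, and the list summed to 152 to 186 CPM and 158 to 189 CPM. Of 5 endothelial markers CDH5 (2.11 and 0.168 CPM) and VWF (1.88 and 0.929 CPM) were higher, the VWF call being lost without CC-885 replicate 1 or DMSO replicate 1 or 2 (adjusted p 0.0508 to 0.116), KDR was at 0, and the list summed to 3.11 to 4.93 CPM and 0.872 to 1.41 CPM. DCN lay below the filter limit in every CC-885 library and CDH5 in every DMSO library. Each thus entered the test only through the group in which it was higher. The part of these markers in the results on integrins and laminins was not tested, and in bulk RNA fewer cells of a kind and less RNA per cell cannot be told apart.

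The upstream sequences of the members were looked at for DNA letters that transcription factors are known to hold. RefSeq (GRCh38.p14) gave 33 promoters of 300 bases, 250 before and 50 after a start, for 26 of the 38 members. ITGA3, ITGA7, ITGA9, ITGAD, ITGAL, ITGAX, ITGB2, ITGB3, ITGB4, LAMA1 and LAMC3 were among those with no entry. Both strands were searched for 5 motifs: AP-1 (TGANTCA), the cyclic AMP response element (TGACGTCA), TEAD (GGAATG), Sp1 (GGGCGG) and the TATA box (TATAAA). None of these strings contains another. The AP-1 string, that of the FOS and JUN factors, stood in the promoters of 3 members, ITGA5, LAMA3 and LAMB3, which is 9.09% of the member promoters, against 7.71% of all 35116 promoters and 5.4% of those of tested genes. Shown here are ITGA5 and LAMB2, the called members with the smallest p among the alpha subunits that bind Arg-Gly-Asp ligands and among the laminin beta chains, and LAMA3 and LAMB3, which hold the AP-1 string and were picked for it. Capitals mark the AP-1 letters, which the LAMB2 promoter lacks.
ITGA5: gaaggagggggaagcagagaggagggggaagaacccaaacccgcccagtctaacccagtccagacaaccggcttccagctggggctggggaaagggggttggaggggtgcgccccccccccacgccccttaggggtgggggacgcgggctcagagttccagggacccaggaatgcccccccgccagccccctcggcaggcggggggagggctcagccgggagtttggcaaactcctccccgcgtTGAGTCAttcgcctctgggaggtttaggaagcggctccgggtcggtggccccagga
LAMA3: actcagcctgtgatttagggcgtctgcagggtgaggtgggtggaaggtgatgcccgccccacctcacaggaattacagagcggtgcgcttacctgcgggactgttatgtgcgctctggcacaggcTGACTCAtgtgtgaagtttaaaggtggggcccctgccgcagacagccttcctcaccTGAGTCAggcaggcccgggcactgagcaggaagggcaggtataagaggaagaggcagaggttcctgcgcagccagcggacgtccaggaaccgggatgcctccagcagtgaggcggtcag
LAMB3: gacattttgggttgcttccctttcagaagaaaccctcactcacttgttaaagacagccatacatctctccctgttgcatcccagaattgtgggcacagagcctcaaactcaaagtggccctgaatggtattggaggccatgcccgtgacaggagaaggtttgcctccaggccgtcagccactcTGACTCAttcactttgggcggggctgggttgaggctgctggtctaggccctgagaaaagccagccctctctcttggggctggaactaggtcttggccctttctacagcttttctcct
LAMB2: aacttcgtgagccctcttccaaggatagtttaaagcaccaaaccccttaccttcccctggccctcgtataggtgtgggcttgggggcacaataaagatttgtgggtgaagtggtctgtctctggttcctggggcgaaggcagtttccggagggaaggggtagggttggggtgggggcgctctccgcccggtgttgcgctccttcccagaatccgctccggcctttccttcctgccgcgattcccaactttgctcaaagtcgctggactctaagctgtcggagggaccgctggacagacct
They lie at chr12:54419217-54419516 (minus strand, ITGA5), chr18:23872770-23873069 (plus strand, LAMA3), chr1:209651325-209651624 (minus strand, 1 of 3 annotated LAMB3 starts) and chr3:49133001-49133300 (minus strand, LAMB2). The ITGA5 match covers bases -6 to 1 around the start, those of LAMA3 bases -125 to -119 and -69 to -63, and that of LAMB3 bases -67 to -61. Of the 3 genes, ITGA5 was higher with CC-885 and LAMA3 and LAMB3 did not pass the test, as given below. Among the other strings, TEAD stood in 4 of the 33 member promoters (ITGA5, ITGA10, ITGB1 and LAMA2; 12.1%, against 14% of all promoters and 11.6% of those of tested genes). The Sp1 string stood in 19 member promoters, of 14 members (57.6%, against 45% of all and 65% of those of tested genes). The TATA box stood in 2 (ITGA6 and ITGB1; 6.06%, against 11.5% and 6.53%) and the response element in 0 (against 1.85% and 2.74%). A match is a string of letters and not a site shown to be bound.

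Of the 38 members, 27 passed the filter on low counts and were tested. With CC-885, 5 were higher (ITGB3, ITGB8, ITGA5 and ITGA1 among them) and 6 lower (ITGA7, LAMB2, LAMB1, ITGB2, ITGA6 and ITGA3) at an adjusted p below 0.05. Thus 40.7% of the tested members were called, against 52.6% of the 13444 genes tested, and the members' share does not stand above that background. Over all genes 25.8% were called higher and 26.8% lower. Changes of at least 2-fold were found for 4 members up (14.8% of those tested, against 8.23% of all genes) and 2 down (7.41%, against 10.3% of all genes). Of the 27 tested members 7 had every CC-885 library above every DMSO library (25.9%, against 29.9% of all genes tested) and 6 had every one below (22.2%, against 31.2%). The median log2 fold change of the tested members was -0.12, beside -0.04 for all genes. LAMA2, ITGA7, ITGAD and ITGAM were near the filter limit of 0.287 CPM and did not reach it in all libraries of both groups, ITGA7 in none with CC-885, so their place among the tested genes depends on the group in which they were higher. The other 11 members had too few counts: ITGA4 had none in any library, ITGA8 and ITGAL none with CC-885, and ITGA9, ITGA10, ITGA11, ITGAX, ITGB6, ITGB7, LAMA4 and LAMB4 averaged at most 0.301 CPM in either group.

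**Figure D1:**
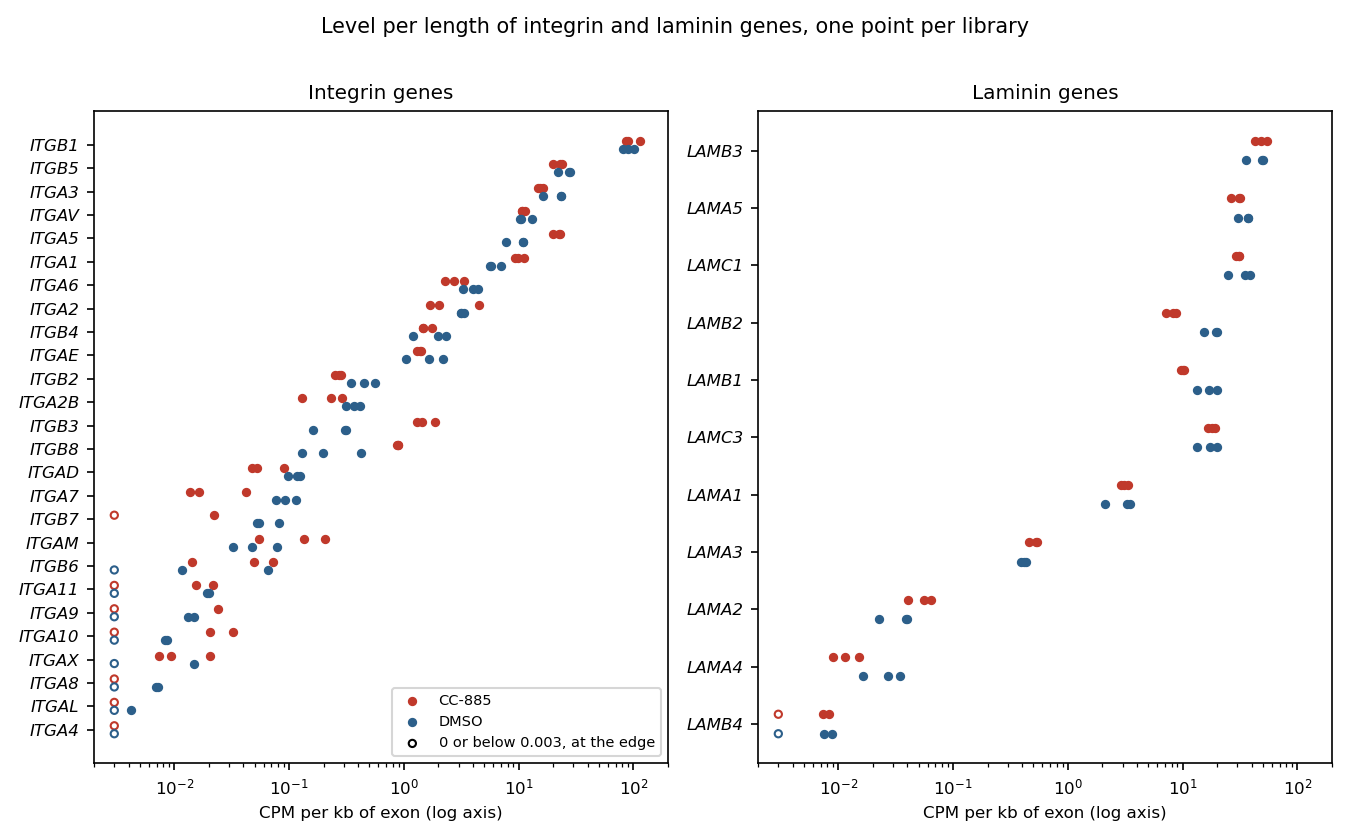
Level of the members per library, in CPM per kilobase of annotated exon on a log axis, integrins left and laminins right, ordered by the DMSO mean. ITGB1 was the highest integrin and LAMB3 the highest laminin in both groups, and ITGA5, ITGB3 and ITGB8 lay to the right with CC-885 and LAMB1 and LAMB2 to the left.

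Levels of different genes were compared per kilobase of annotated exon. ITGB1, the beta subunit shared by most alpha subunits, was the most abundant member, with a mean of 96.9 CPM per kilobase in CC-885 libraries, against 90.6 in DMSO libraries. Next came LAMB3 (48.5 and 45.03), LAMC1 (30.3 and 33.0) and LAMA5 (29.7 and 34.8), chains of each of the 3 laminin classes. ITGB5, an ITGAV partner that binds vitronectin, followed at 22.2 and 25.7 CPM per kilobase. ITGA5 was the 6th member with CC-885, at 21.9 CPM per kilobase, and the 11th with DMSO, at 9.88. As sums of CPM, the 26 integrins gave 1361, 1351 and 1503 with CC-885, against 1304, 1181 and 1367 with DMSO, ranges that overlap. The 12 laminins gave 1319, 1241 and 1154 CPM with CC-885 and 1521, 1165 and 1599 CPM with DMSO, and these overlap too. DMSO replicate 2 was the lowest DMSO library for 8 of the 10 tested laminins and for 9 of the 17 tested integrins. The same count over all tested genes is not given here, so these counts are not read as a trait of the families. Results that turn on DMSO replicate 2 are given with and without it.

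**Figure D2:**
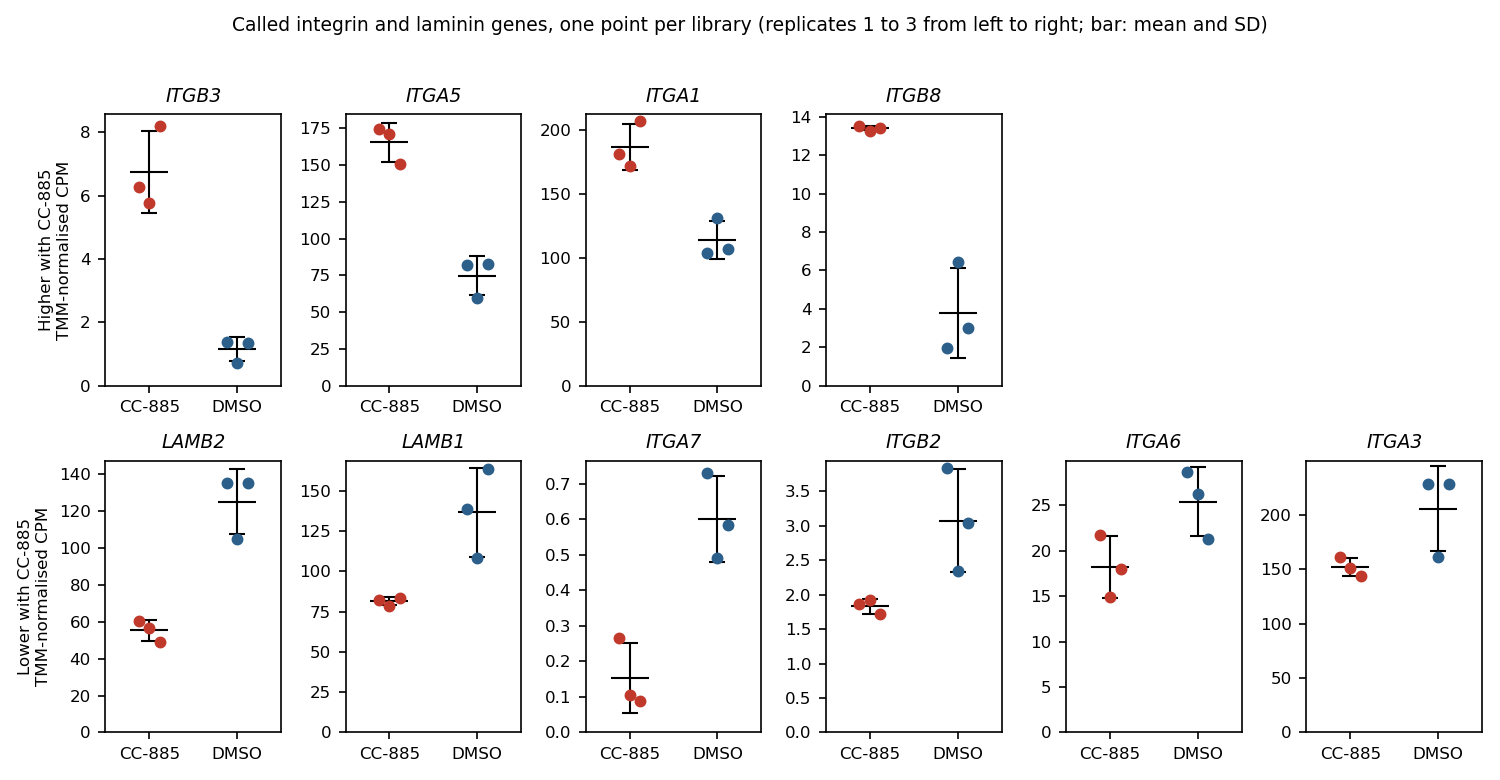
TMM-normalised CPM of called members, 4 higher (top row) and 6 lower (bottom row), with 1 point per library and the mean and SD of each group of 3. For ITGA3 and ITGA6 the groups overlap, and for the others shown every CC-885 library lies on 1 side of every DMSO library.

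Among the integrins that bind Arg-Gly-Asp ligands, ITGA5, the alpha subunit of the main fibronectin receptor, rose. It stood at 175, 171 and 151 CPM with CC-885, against 82.3, 59.4 and 82.9 CPM with DMSO. Every CC-885 library was above every DMSO library, and the difference was 2.21-fold (log2 fold change 1.15, 95% interval 0.81 to 1.48, adjusted p = 0.000116). ITGAV, the alpha subunit that pairs with 5 beta subunits and binds vitronectin and latent TGF-beta, had 93.7, 87.5 and 88.6 CPM with CC-885 and 85.0, 108 and 85.6 CPM with DMSO. The groups overlapped and the 95% interval of its log2 fold change ran from -0.34 to 0.24 (adjusted p = 0.777). ITGA2B, the platelet alpha subunit of the fibrinogen receptor, was low, at 1.30, 1.61 and 0.726 CPM with CC-885 and 2.30, 2.04 and 1.75 CPM with DMSO. Each CC-885 library was below each DMSO library, but the difference missed the threshold (log2 fold change -0.74, adjusted p = 0.0629), and it passed when scaled by library totals only (adjusted p = 0.0484), without CC-885 replicate 2 (0.0337) or without DMSO replicate 3 (0.0422). ITGA8 had 2 counts each in DMSO replicates 1 and 2 and none elsewhere.

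Of the beta subunits that pair with ITGAV, ITGB3 and ITGB8 rose. ITGB3, which with ITGAV forms a vitronectin receptor of migrating cells and with ITGA2B the platelet receptor, showed the largest increase of any member. It stood at 6.26, 5.77 and 8.19 CPM with CC-885, against 1.38, 0.708 and 1.35 CPM with DMSO. The lowest CC-885 library was above the highest DMSO library, and the difference was 5.87-fold (log2 fold change 2.55, 95% interval 1.96 to 3.15, adjusted p = 2.35e-05). ITGB3 shares 2266 exonic bases with a second annotated protein-coding gene on the same strand, ENSG00000259753, whose own row was at 0 in every library. ITGB8, whose dimer with ITGAV frees TGF-beta from its latent form, was at 13.5, 13.3 and 13.4 CPM with CC-885, against 1.96, 6.43 and 3.01 CPM with DMSO. The CC-885 libraries were nearly equal and the DMSO libraries were spread, and the rise was 3.53-fold (log2 fold change 1.82, 95% interval 0.84 to 2.80, adjusted p = 0.00956). That call was lost without DMSO replicate 3 (log2 fold change 1.67, adjusted p = 0.0889).

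ITGB1 and ITGB5, the abundant beta subunits, did not pass the test. ITGB1 had 520.2, 542 and 686 CPM with CC-885 and 539, 491 and 604 CPM with DMSO (log2 fold change 0.10, 95% interval -0.25 to 0.44). ITGB5 had 147, 155 and 128 CPM with CC-885 and 176, 141 and 180.0 CPM with DMSO (log2 fold change -0.21, 95% interval -0.52 to 0.10), and passed as lower only when DMSO replicate 2 was left out (adjusted p = 0.0371). As a share of the per-kilobase level of the 5 beta subunits that pair with ITGAV, ITGB3 made up 1.26 ± 0.12% with CC-885 and 0.22 ± 0.06% with DMSO (SD, n = 3 each). The 4394 exonic bases used for ITGB3 include the 2266 shared with ENSG00000259753. Whether reads in those were counted is not known, so the size of the share is uncertain. ITGB6, an epithelial subunit that also frees TGF-beta, had 2, 13 and 8 counts with CC-885, against 0, 2 and 10 with DMSO and was not tested.

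The laminin-binding alpha subunits ITGA3, ITGA6 and ITGA7 were called lower, as were 26.8% of all genes, and ITGA7 entered the test only through its DMSO counts. ITGA3, which with ITGB1 is a laminin receptor of epithelia, had 161, 151 and 144 CPM with CC-885, against 228, 161 and 228 CPM with DMSO. The highest CC-885 library overlapped the lowest DMSO library, and the fall was 1.35-fold (log2 fold change -0.44, 95% interval -0.78 to -0.10, adjusted p = 0.0339). ITGA6, which pairs with ITGB1 or with ITGB4, had 21.7, 14.9 and 17.96 CPM with CC-885, against 28.7, 26.3 and 21.3 CPM with DMSO. Here too CC-885 replicate 1 overlapped a DMSO library, replicate 3, and the fall was 1.40-fold (log2 fold change -0.48, 95% interval -0.86 to -0.11, adjusted p = 0.0333). Both calls were close to the threshold: that of ITGA3 was lost when any library but DMSO replicate 2 was left out (adjusted p 0.0629 to 0.131), and that of ITGA6 without CC-885 replicate 2 or 3 or DMSO replicate 1 or 2 (adjusted p 0.082 to 0.155). ITGA7, a laminin receptor of muscle, was scarce, with 8, 4 and 3 counts under CC-885 against 28, 18 and 19 under DMSO. The groups did not overlap and the fitted log2 fold change was -2.002 (95% interval -3.10 to -0.90, adjusted p = 0.00602). On the opposite strand 3 genes share a few exonic bases of ITGA7. Of these, BLOC1S1 (26.4 and 51.6 CPM with CC-885 and DMSO) and BLOC1S1-RDH5 (12.1 and 20.2 CPM) were lower too, and METTL7B was not called.

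ITGB4, which with ITGA6 forms the hemidesmosome receptor that ties laminin to keratin, did not move with ITGA6 past the test. It had 11.9, 10.0 and 9.85 CPM with CC-885 and 13.4, 8.09 and 15.7 CPM with DMSO, DMSO replicate 2 being the lowest of all 6 (log2 fold change -0.23, 95% interval -0.72 to 0.26, adjusted p = 0.416). Without DMSO replicate 2 the gene was called lower (log2 fold change -0.45, adjusted p = 0.0356).

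The collagen receptors gave 1 call of 2 tested. ITGA1, a receptor of basement membrane collagen, rose to 181, 172 and 207 CPM with CC-885, against 104, 131 and 107 CPM with DMSO. The groups did not overlap (1.64-fold, log2 fold change 0.71, 95% interval 0.40 to 1.02, adjusted p = 0.00148). PELO, a ribosome rescue factor gene that lies on the same strand and shares 475 exonic bases of ITGA1's 18.57 kilobases, rose as well (115 and 54.6 CPM with CC-885 and DMSO), and its part in the ITGA1 counts was not tested. A processed pseudogene on that strand, AC022133.1, shares 571 exonic bases with ITGA1 and has no row of its own. The antisense genes AC022126.1 and AC025180.1 share 109 and 118. ITGA2, a receptor of fibrillar collagen, depended on 1 library: it had 16.0, 13.5 and 36.0 CPM with CC-885 and 24.9, 26.6 and 24.6 CPM with DMSO. CC-885 replicate 3 lay above all DMSO libraries and the other CC-885 libraries below them, so the whole comparison was not called (log2 fold change -0.22, adjusted p = 0.658), while without replicate 3 it was lower (log2 fold change -0.78, adjusted p = 0.00419). ITGA10 and ITGA11 had at most 9 counts in any library.

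**Figure D3:**
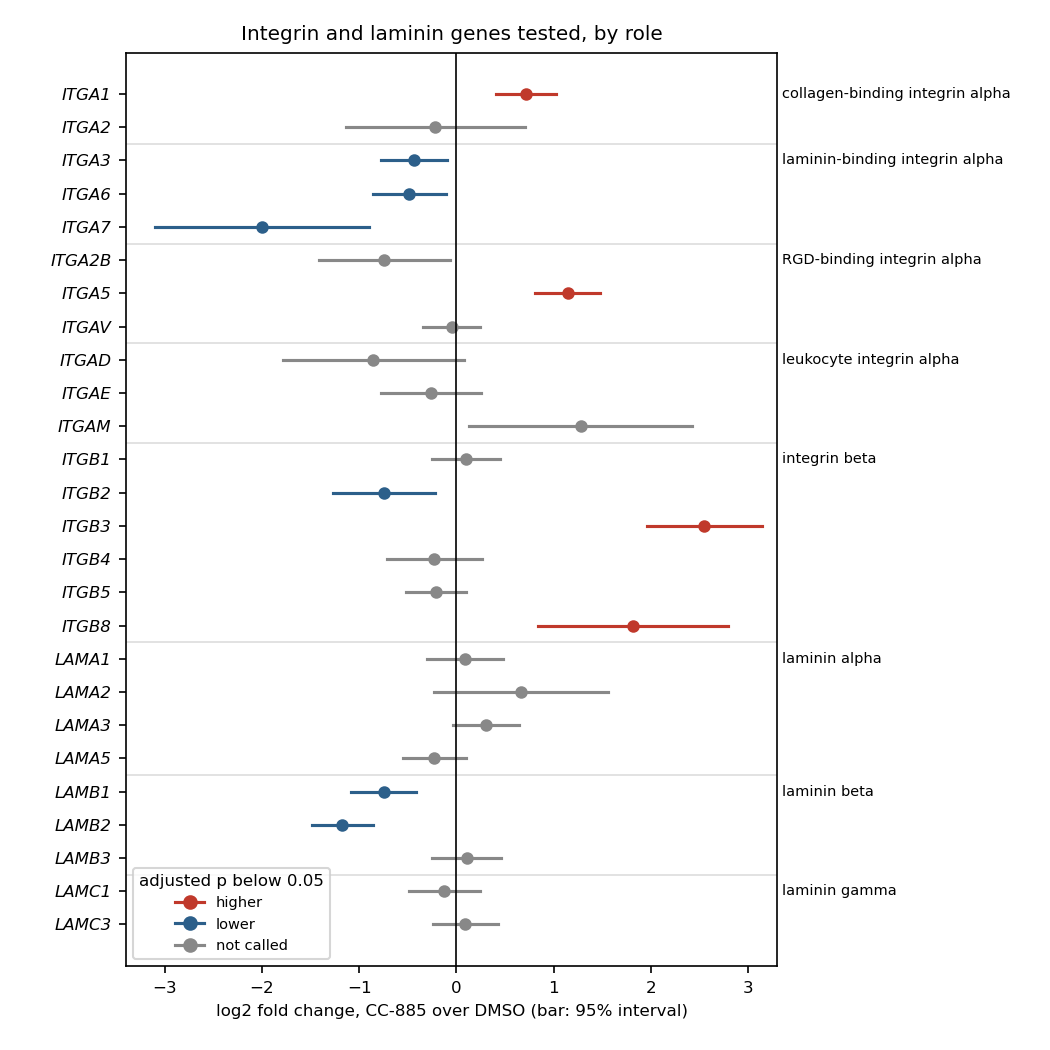
Log2 fold change of CC-885 over DMSO with its 95% interval for tested members, grouped by role, in red where higher, blue where lower and grey where not called. The laminin-binding alpha subunits lie left of 0, ITGA5, ITGA1, ITGB3 and ITGB8 right of it, and no laminin alpha chain is called.

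Apart from ITGAE, the integrins of leukocytes were low or absent, as were the leukocyte markers, a list that includes ITGB2. ITGB2, their common beta subunit, had 1.87, 1.92 and 1.71 CPM with CC-885 and 3.84, 2.34 and 3.04 CPM with DMSO. The groups did not overlap (log2 fold change -0.74, adjusted p = 0.021), but leaving out CC-885 replicate 3 or DMSO replicate 1 ended the call (adjusted p = 0.068 and 0.119). Of the 5 leukocyte alpha subunits 3 were tested and 0 called by edgeR, DESeq2 or limma-voom, with 1 at an unadjusted p below 0.05. That was ITGAM (0.766, 0.312 and 1.16 CPM with CC-885 and 0.444, 0.272 and 0.184 CPM with DMSO, log2 fold change 1.28, adjusted p = 0.0587), and leaving out CC-885 replicate 2 made it a higher call (adjusted p = 0.0152). ITGAD had 0.400, 0.208 and 0.232 CPM with CC-885 and 0.548, 0.436 and 0.522 CPM with DMSO (log2 fold change -0.86, adjusted p = 0.111). ITGAE, the partner of ITGB7 that binds E-cadherin, had 8.63, 9.36 and 9.27 CPM with CC-885 and 11.0, 14.7 and 6.998 CPM with DMSO (adjusted p = 0.365). It passed as lower without DMSO replicate 3 (adjusted p = 0.0258), and it shares 427 exonic bases with HASPIN on the opposite strand. ITGB7 had 3, 0 and 0 counts with CC-885, against 9, 9 and 12 with DMSO, and was not tested; it shares 1886 exonic bases with ZNF740 on the opposite strand.

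Among the laminins both LAMB1 and LAMB2 fell while LAMB3 did not pass the test. LAMB2, the beta chain of kidney and synaptic basement membranes, was at 60.2, 56.8 and 49.2 CPM with CC-885, against 135, 105 and 135 CPM with DMSO. No library of 1 group reached the other, and the fall was 2.26-fold (log2 fold change -1.18, 95% interval -1.49 to -0.86, adjusted p = 6.43e-05). LAMB1, the most widespread beta chain, was at 82.2, 78.6 and 83.3 CPM with CC-885, against 139, 108 and 163 CPM with DMSO. The CC-885 libraries were close together and below all DMSO libraries (1.68-fold, log2 fold change -0.75, 95% interval -1.09 to -0.41, adjusted p = 0.00188). LAMB3, a beta chain of epithelial laminin that joins LAMA3, had 256, 224 and 202 CPM with CC-885 and 232, 166 and 234 CPM with DMSO (log2 fold change 0.11, 95% interval -0.25 to 0.46, adjusted p = 0.6). LAMB4 had at most 2 counts in any library.

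LAMA3, the alpha chain that joins LAMB3, was far scarcer than LAMB3. Per kilobase LAMB3 stood at 48.5 CPM with CC-885 and 45.03 with DMSO, and LAMA3 at 0.509 and 0.412. LAMA3 had 6.73, 7.95 and 7.73 CPM with CC-885 and 6.06, 5.72 and 6.38 CPM with DMSO, without overlap, but missed the threshold (log2 fold change 0.30, 95% interval -0.04 to 0.65, adjusted p = 0.124).

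LAMC1 and LAMC3, which are gamma chains, did not pass the test. LAMC1, found in most laminins, had 259, 245 and 260.1 CPM with CC-885 and 294, 210.3 and 327 CPM with DMSO, a wide DMSO range that holds all CC-885 values (log2 fold change -0.12, 95% interval -0.49 to 0.24), and passed as lower without DMSO replicate 2 (adjusted p = 0.0355). LAMC3, a chain of restricted expression in nerve and brain, had 144, 138 and 126 CPM with CC-885 and 131, 101 and 150.4 CPM with DMSO (log2 fold change 0.09, 95% interval -0.25 to 0.43). Of the 5 alpha chains 4 were tested and 0 called by edgeR, DESeq2 or limma-voom, with 0 at an unadjusted p below 0.05. LAMA5, the main alpha chain of adult basement membranes, had 455, 442 and 376 CPM with CC-885 and 531, 434 and 525 CPM with DMSO (log2 fold change -0.23, 95% interval -0.55 to 0.10, adjusted p = 0.219), and it too passed as lower without DMSO replicate 2 (adjusted p = 0.0372). It shares 244 exonic bases with ADRM1 on the opposite strand, which was higher with CC-885 (290.5 and 188 CPM). LAMA1, known best from the embryo, averaged 49.5 ± 3.78 CPM with CC-885, against 46.6 ± 11.8 CPM with DMSO (SD, n = 3 each). LAMA2, of muscle, averaged 0.554 and 0.348 CPM, and LAMA4, of vessels, 0.137 and 0.301 CPM.

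**Figure D4:**
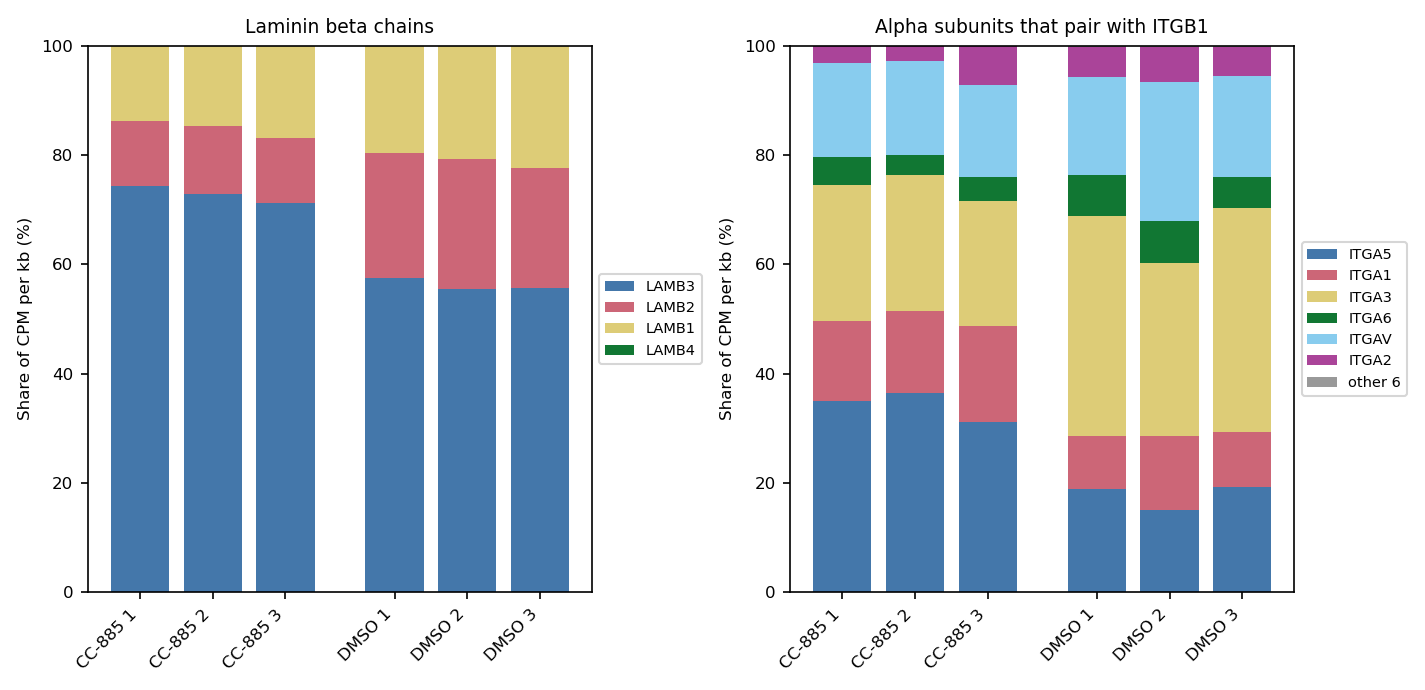
Share of the summed per-kilobase level, in percent, of each laminin beta chain (left) and of alpha subunits that pair with ITGB1 (right), with 1 bar per library. On the right, ITGA1, ITGA2, ITGA3, ITGA5, ITGA6 and ITGAV are drawn singly and the other alpha subunits together. LAMB3 takes 71.2 to 74.3% of the bar with CC-885 and 55.4 to 57.4% with DMSO, and ITGA5 31.1 to 36.5% and 15.1 to 19.3%.

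Shares within a class were taken per library on the per-kilobase scale. Among beta chains LAMB3 made up 74.3, 72.8 and 71.2% with CC-885, against 57.4, 55.4 and 55.7% with DMSO. LAMB2 made up 11.9, 12.6 and 11.9% with CC-885, against 22.8, 23.9 and 21.9% with DMSO. The groups did not overlap for LAMB1, LAMB2 or LAMB3. Among the 12 alpha subunits that pair with ITGB1, ITGA5 made up 34.9, 36.5 and 31.1% with CC-885, against 18.8, 15.1 and 19.3% with DMSO. ITGA3 stood at 24.8, 24.9 and 23.0% with CC-885, against 40.3, 31.5 and 40.9% with DMSO. Per kilobase, ITGA5 was thus the leading alpha subunit of this set in each CC-885 library and ITGA3 in each DMSO library. The first of these depends on the annotated exon lengths, since in CPM ITGA1 was above ITGA5 in each CC-885 library. For each of these shares the exact two-sided permutation test gave p = 0.1, the smallest that 3 against 3 libraries allow, and the adjusted value was 0.171 over the 29 shares computed in 5 classes. A share also moves when other members of its class change, so the shares are not independent of the calls above. LAMB3 itself was not called (log2 fold change 0.11, adjusted p = 0.6), and the CPM of ITGA3 overlapped between the groups. Shares of mRNA per exon length do not measure the dimers or trimers on the cells.

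Genes that work with integrins and laminins were counted in 7 lists, with 52.6% of all genes called for comparison (25.8% higher and 26.8% lower). The called share of tested genes was 66.7% for the ligands, 55.6% for the basement membrane list and 50% for the receptor list. It was 53.3% for the adaptors, 50% for the kinases, 56.5% for the secretion list and 45% for the endocytosis list. Most of these lie near the share of all genes, and the counts are not read as results about the lists. Of 30 other integrin ligands 21 were tested, 6 were higher and 8 lower. The matricellular ligands CCN1 (2918 ± 101 and 147 ± 25.7 CPM with CC-885 and DMSO, log2 fold change 4.31) and CCN2 (1109.6 ± 68.1 and 75.6 ± 13.0 CPM, 3.88) led the higher ones, while NPNT, a basement membrane ligand, (-0.75) and TNXB (-0.82) were lower. In the list of basement membrane components 2 of 18 tested were higher and 8 lower: NTN4, a netrin that binds laminin gamma chains (103 ± 6.13 and 43.4 ± 4.33 CPM, log2 fold change 1.24), and COL7A1, the anchoring fibril collagen (0.63), against COL4A4 (-1.08) and COL4A3 (-1.15), chains of kidney-type collagen IV. A mixed list of other laminin receptors, tetraspanins, galectins and further partners had 3 higher and 6 lower among 18 tested. SDC4, a syndecan of focal adhesions (log2 fold change 1.03), and PRNP (0.66) were higher, and the tetraspanin CD82, a partner of integrins known as a suppressor of metastasis (9.18 ± 1.58 and 42.7 ± 3.05 CPM, log2 fold change -2.21), and the galectin LGALS1 (-1.71) were lower.

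Inside the cell, integrin activators and adaptors had 11 higher and 5 lower among 30 tested (53.3% called, against 52.6% of all genes). FHL2 (log2 fold change 0.87) was higher and the tensins TNS2 (-1.17) and TNS1 (-0.89) were lower. The list of signalling kinases and exchange factors had 9 higher and 4 lower among 26 tested, the lower ones being 1 or 2 when any CC-885 library or DMSO replicate 1 was left out. NEDD9 (393 ± 47.0 and 16.5 ± 4.89 CPM, log2 fold change 4.57) and its relative BCAR1 (1.35), the docking proteins of focal adhesion kinase and Src, were higher, and PTK2B (-0.58) and RHOA (-0.45) lower, RHOA with its call lost when any 1 of the 3 CC-885 libraries or DMSO replicate 1 was left out (adjusted p 0.0528 to 0.077). In the list of secretion, cleavage and glycosylation 7 of 23 tested were higher and 6 lower. MMP9 (log2 fold change 2.02) was higher, and B4GAT1, an enzyme that builds the laminin-binding glycan of dystroglycan (13.6 ± 2.60 and 42.6 ± 3.95 CPM, log2 fold change -1.65), and the fucosyltransferase FUT8 (-0.73) were lower. Endocytosis and recycling genes had 5 higher and 4 lower among 20 tested, with SWAP70 (1.72) and the clathrin adaptor DAB2, which takes up ITGB1 dimers (1162 ± 72.6 and 310.3 ± 73.5 CPM, log2 fold change 1.91), higher, and CLIC3 (-2.37) and RAB4A (-0.69), both known from integrin recycling, lower. Of the genes named here BCAR1, CCN2, CD82, COL4A3, FHL2, FUT8, MMP9, NEDD9, NPNT, RHOA, TNS1, TNS2 and TNXB share exonic bases with annotated genes on the opposite strand and BCAR1, COL7A1, DAB2, RAB4A and TNXB with annotated genes on the same strand, so their counts are less certain.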

How the data were processed

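Total RNA of HCCLM3 cells was sequenced after library preparation with an mRNA kit, per the labels' protocols. The authors deposited raw counts, whole numbers per gene that were not normalized, in 6 columns matched to the samples through their descriptions. No aligner, counter or strand setting is given in the sources used here. Mouse builds (GRCm38, mm10) appear in the submitters' processing notes although every identifier is a human Ensembl gene, so the coordinates printed are RefSeq's. Symbols came from a gene name table for 20148 identifiers and from GENCODE 29 for 76. Exon lengths and overlaps came from GENCODE 29. Of counts from 1 to 20, 65.5 to 67.8% were even, and the counting unit is unknown, so the totals may overstate the depth.

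The fit used edgeR 4.0.16 (R 4.3.3) with TMM factors, filterByExpr at a minimum count of 10 and the robust quasi-likelihood F test, adjusted by Benjamini-Hochberg over all 13444 tested genes and a threshold of 0.05. Every adjusted p is from this test unless another tool is named. Standard errors, and from them the 95% intervals, were approximated by dividing each log2 fold change by the root of its F statistic. The script was tested on simulated data. Alternatives were DESeq2 1.42.0, limma-voom (limma 3.58.1), other scalings, filters, halved counts, a replicate block and leaving out each library in turn; offsets for GC content and transcript length were added after the data were seen. Members were named with any value, and in each partner list the smallest p decided which genes were named, 2 in each direction. Some genes are counted but not reported here by name. The members and lists were chosen with earlier results of these data known.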

Additional observations from a re-analysis of the deposited data

How the results depend on the processing

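The 5 higher and 6 lower members were all called in the same direction with DESeq2's size factors, library totals only, the DESeq2 Wald test, limma-voom, no filter on low counts, the replicate block, and offsets for GC content and transcript length. A stricter filter (CPM of 5 or more in 3 libraries) kept 8 of the 11 calls and halved counts kept 10; the members lost were no longer tested. Leaving out 1 library gave 4 to 6 higher and 3 to 9 lower members. The 3 were found without DMSO replicate 1 (LAMB1, LAMB2 and ITGA7) and the 9 without DMSO replicate 2; the cause was not tested. ITGA5, ITGA1, ITGB3, LAMB1, LAMB2 and ITGA7 were called under every alternative in which they were tested. With the replicate block 5 members were higher and 7 lower, ITGA2B being the one added (log2 fold change -0.79, adjusted p = 0.0459). The numbers are not stated to pair libraries, and the deviations of same-numbered libraries correlated at 0.08, 0.03 and 0.06, with CC-885 replicate 2 closest to DMSO replicate 1. Over all genes 2897 to 3650 were higher and 2908 to 3720 lower with 1 library left out. Among the partner lists, endocytosis genes gave 8 higher with the offsets or without DMSO replicate 3, adaptors 8 lower without DMSO replicate 2, and the stricter filter left 5 lower ligands and 3 higher secretion genes. ITGA7, ITGAM, ITGAD and LAMA2 rest on at most 40 counts per library.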
